A study of Mus musculus with 6 samples.

Results

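The telomerase RNA *Terc*, the telomerase reverse transcriptase *Tert* and 7 protein factors that build, mature or direct H/ACA ribonucleoproteins were followed in islets with and without *Parn*. These genes, *Terc*, *Tert*, *Dkc1*, *Nop10*, *Nhp2*, *Gar1*, *Naf1*, *Shq1* and *Wrap53*, were taken by name, and all 9 have a row among the 55060 genes of the expression table. RNA was sequenced from pancreatic islets of mice at 12 weeks of age, with 3 Ctrl and 3 cKO samples. In cKO mice, a Cre recombinase driven by the *Ins2* promoter removes the floxed exon 7 of *Parn* in insulin-producing β cells on the C57BL/6 background, whereas Ctrl animals were *Parn* f/f mice or other littermates. Whole islets also contain α, δ, γ, endothelial and other cells that keep *Parn*, and the labels give neither the sex of the animals nor whether islets of several animals were pooled. The labels only number the samples, so the p-values measure the spread between these samples.

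PARN is a poly(A)-specific ribonuclease that trims short A tails from the 3′ ends of several non-coding RNAs, among them the telomerase RNA and H/ACA guide RNAs. Telomerase copies the template in *Terc* to add repeats to chromosome ends, and the 3′ part of *Terc* folds into an H/ACA domain. This domain is bound by dyskerin (*Dkc1*), *Nop10* and *Nhp2*, first with the assembly factor *Naf1* and later with *Gar1*, whereas *Shq1* holds dyskerin before assembly and *Wrap53* (TCAB1) brings the particle to Cajal bodies. Adult β cells divide rarely.

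The annotated ends of *Terc* are shown because they carry the template that telomerase copies and the 3′ end at which trimming takes place. Both stretches were read from the GENCODE M21 transcript on GRCm38 and are written 5′ to 3′ in DNA letters. In the annotated 5′ end (bases 1 to 60 of 423), the capitals at bases 28 to 35 mark the template. It is complementary to the telomeric repeat. Where the mature RNA starts within this annotation was not measured.
*Terc* 5′ end, chr3:96414800-96414859, minus strand: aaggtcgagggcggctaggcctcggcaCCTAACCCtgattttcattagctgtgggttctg
In the 3′ end (bases 364 to 423), the capitals mark the letters TGAG of a Cajal body box at bases 383 to 386, and the letters ACA that lie 3 bases before the annotated end, the place of box ACA in an H/ACA RNA.
*Terc* 3′ end, chr3:96414437-96414496, minus strand: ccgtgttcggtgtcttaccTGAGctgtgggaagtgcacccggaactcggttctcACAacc
The ACA letters lie 3 bases before the end in 34 of the 40 annotated *Snora* RNAs (85.0%) and in 2 of the 9 *Scarna* RNAs (22.2%), searched on the RNA strand. TGAG occurs in the last 60 bases of 11 of 40 *Snora* RNAs (27.5%) and of 6 of 9 *Scarna* RNAs (66.7%). The expression table holds 1 value per gene and sample, so neither the length of the *Terc* 3′ end nor an A tail on it was measured.

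The deposited unit is FPKM, the fragments of a gene corrected for gene length and for a library size. The reads on genes, read back from these values, summed to between 16289408 and 17944775 per sample. The library size that the FPKM imply lay below this sum in every Ctrl sample and above it in every cKO sample. It was 15731223 against 16470783 in Ctrl replicate 2 and 17386442 against 16289408 in cKO replicate 2. The median ratio of the FPKM to each gene's geometric mean over the samples was 1.0037 in every sample. The deposited values thus already stood on a median-ratio scale. Changes are log2 differences of FPKM + 1, cKO minus Ctrl, from limma over 21211 genes (mean FPKM at or above 0.1) with Benjamini-Hochberg adjustment. On this scale the change of a gene with low FPKM is understated. *Parn* itself was at 6.64, 8.34 and 7.38 FPKM in the Ctrl samples and at 4.97, 4.61 and 6.15 in the cKO samples. The groups did not overlap, and the log2 change was -0.44 (standard error 0.131, limma adjusted p = 0.545). Markers of β, α, δ and γ cells were detected in all samples. In these bulk samples, fewer cells of a type and less RNA per cell cannot be told apart.

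All 9 genes were expressed above the filter, and none was called different between the genotypes. At an adjusted p under 0.05 limma called 0 of the 9, as it called 0% of all genes tested (0 of 21211). At an unadjusted p under 0.05 it also found 0 of the 9, against 7.4% of all genes (4.33% higher and 3.07% lower), and limma's voom on the reads found 0 of the 9 as well. In 7 of the 9 genes the estimate was lower in cKO and in 2, *Gar1* and *Shq1*, it was higher, while 53.5% of all genes had a lower estimate. Their median log2 change was -0.12, against -0.01 over all genes, whose middle 90% lay between -0.42 and 0.40. *Dkc1* was the only one of the 9 whose groups did not overlap, 1 of 9 against 13.1% of all genes (7.11% higher and 6.03% lower).

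**Figure D1:**
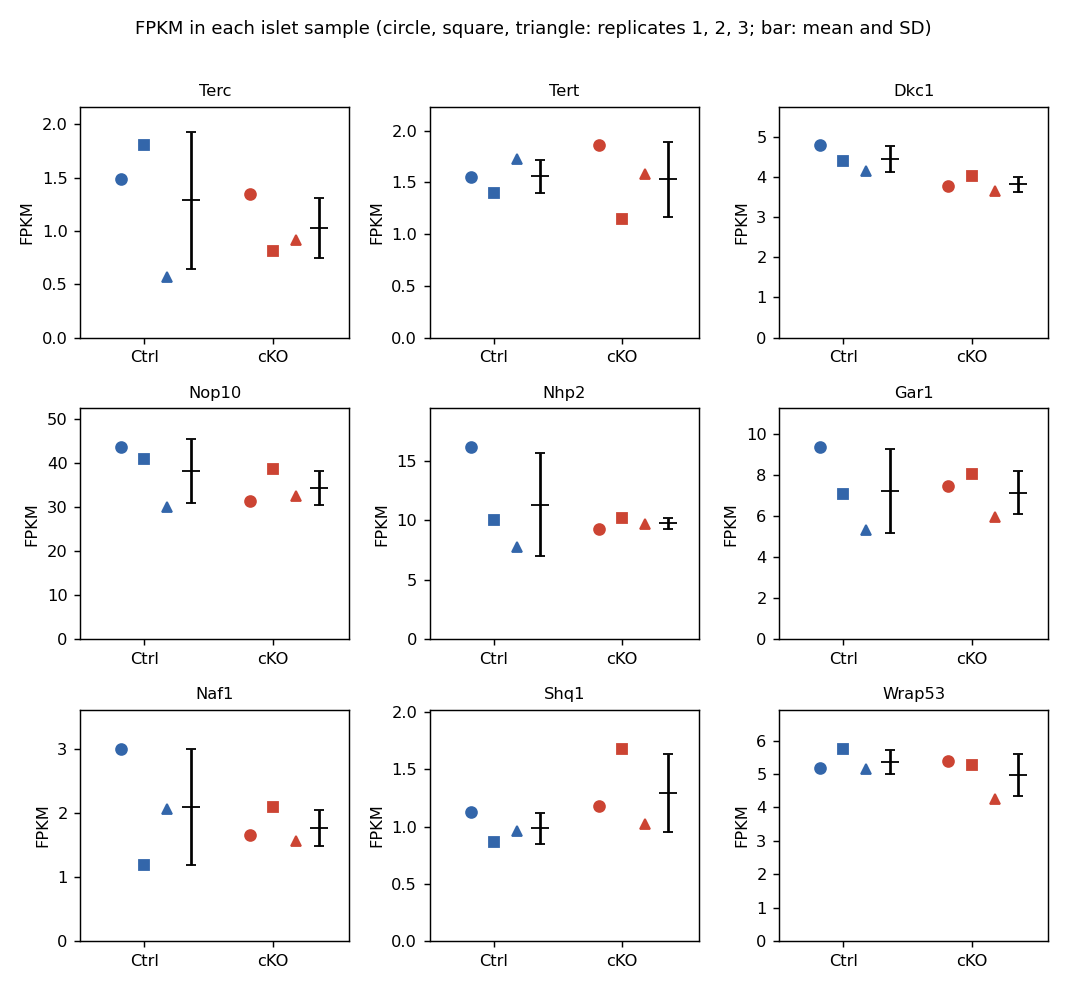
FPKM of the 9 genes in each islet sample, one panel per gene, with Ctrl in blue, cKO in red and a bar for the mean and SD (n = 3). Only in the *Dkc1* panel do all cKO points (3.66 to 4.03) lie below all Ctrl points (4.16 to 4.798).

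*Terc* (ENSMUSG00000064796, chr3:96414437-96414859, minus strand, annotated as misc_RNA) was detected at a low level in every sample. Its FPKM was 1.49, 1.80 and 0.568 in Ctrl and 1.35, 0.816 and 0.915 in cKO samples. The groups overlapped fully, since Ctrl replicate 3 had the lowest value of all 6 samples and the other Ctrl samples the highest. The Ctrl mean was 1.29 ± 0.642 and the cKO mean 1.03 ± 0.282 (SD, n = 3 each), giving a log2 change of -0.14 (standard error 0.241, limma adjusted p = 0.920) with a 95% interval of -0.72 to 0.44.

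Few reads stood behind these values. *Terc* had 11, 12 and 4 reads in Ctrl and 10, 6 and 7 in cKO samples, and a read was worth an FPKM of 0.131 to 0.150. The 4 reads of Ctrl replicate 3 have an exact 95% Poisson interval of 1.09 to 10.2 reads, which overlaps the interval of 6.20 to 20.96 around the 12 reads of Ctrl replicate 2. Summed per group, 27 reads in Ctrl against 23 in cKO gave a rate ratio of 0.800 over the implied library sizes. Its exact 95% interval was 0.438 to 1.45, and over the reads on genes the ratio would be higher. These intervals cover counting error only. A difference of the size of *Parn*'s own would not be detectable in *Terc* at this depth. Without Ctrl replicate 3 the log2 change of *Terc* was -0.39, and without Ctrl replicate 2 it was 0.03.

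*Terc* has no poly(A) tail in its mature form, and the labels name an mRNA library kit. Of 10 other RNAs without a poly(A) tail, 7 were at 0 in all samples, among them the RNase MRP and RNase P RNAs *Rmrp* and *Rpph1* and the signal recognition particle RNA *Rn7s1*. The 7SK RNA *Rn7sk*, which restrains transcription elongation, was measured at 8.66, 5.95 and 9.26 FPKM in Ctrl and 6.54, 4.52 and 6.01 in cKO samples. The vault RNA *Vaultrc5* was at 0 in all Ctrl samples and in cKO replicate 1, and at 1.61 and 1.55 in cKO replicates 2 and 3. How far the library captured such RNAs was not tested.

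*Tert* (chr13:73626911-73649843, plus strand), the catalytic subunit, was close to *Terc* in FPKM. Its FPKM was 1.55, 1.40 and 1.72 in Ctrl and 1.86, 1.14 and 1.58 in cKO samples. The highest and the lowest value were both in cKO islets, so the groups overlapped. *Tert* averaged 1.56 ± 0.161 in Ctrl and 1.53 ± 0.360 in cKO (SD, n = 3 each), and the log2 change was -0.02 (standard error 0.144, 95% interval -0.37 to 0.32, limma adjusted p = 0.982). The gene is longer than *Terc*, and 114 to 187 reads fell on it per sample. The reads summed to 445 in Ctrl and 465 in cKO, a rate ratio of 0.981 over the implied library sizes (exact 95% interval 0.860 to 1.12). Counting error thus leaves a narrower range for *Tert* than for *Terc*.

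*Dkc1* (chrX:75095854-75109777, plus strand) encodes dyskerin, the pseudouridine synthase of the H/ACA particle that also binds telomerase RNA. Its FPKM was 4.798, 4.41 and 4.16 in Ctrl and 3.78, 4.03 and 3.66 in cKO samples. All cKO values lay below all Ctrl values, although the highest cKO and the lowest Ctrl value were close. The mean was 4.46 ± 0.323 in Ctrl and 3.83 ± 0.189 in cKO (SD, n = 3 each), and the log2 change was -0.18 (standard error 0.0962, limma adjusted p = 0.756). This corresponds to 0.885-fold FPKM + 1, with a 95% interval of 0.754 to 1.04 that includes no change. Of all genes tested, 6.03% likewise had all cKO values below all Ctrl values. *Dkc1* kept its direction in all 17 alternatives of the fit, some of which leave the estimate unchanged by design. Its log2 changes ran from -0.22 to -0.13 and its limma adjusted p from 0.496 to 0.947.

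*Dkc1* is X-linked, and the samples were not alike in sex-linked transcripts. *Xist* was at 24.1, 20.4 and 42.5 FPKM in Ctrl and 29.9, 39.4 and 0.139 in cKO samples, and 4 Y-linked genes summed to 14.3, 10.2 and 0 in Ctrl and to 2.99, 0 and 28.7 in cKO. Samples with both transcripts were present in each group. *Dkc1* shares 45 bases at its end with *Mpp1* on the opposite strand, which was at 3.44, 1.34 and 1.83 FPKM in Ctrl and 2.003, 2.20 and 1.89 in cKO samples. Whether the counting used strand is not given in the sources used here. The snoRNA gene *Gm25520* inside *Dkc1* was at 0 in all samples.

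Among the genes nearest to *Dkc1* in their course over the 6 samples were *Rdh11* and *Hnrnpa1*, out of 13362 genes whose FPKM averaged at least 1. Likeness was the root mean square difference of log2(FPKM + 1) around each gene's mean, and it was 0.0139 and 0.0225. The log2 changes of these genes were -0.19 and -0.21, with no overlap between the groups in either. Both genes were chosen for their likeness to *Dkc1* in these samples. Similar changes and groups apart thus follow from the choice and add nothing about *Dkc1*. Of the genes studied here, *Wrap53* was the nearest, at rank 1290. This ranking describes 6 samples and was not tested.

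*Nop10* (chr2:112261926-112263269, plus strand), the smallest core protein of the particle, was by far the most abundant of the 9. Its FPKM was 43.7, 40.9 and 30.1 in Ctrl and 31.5, 38.7 and 32.6 in cKO samples. The lowest value belonged to Ctrl replicate 3, and all cKO values lay within the Ctrl range. The log2 change was -0.14 (standard error 0.159, 95% interval -0.52 to 0.24, limma adjusted p = 0.868). Leaving out Ctrl replicate 3 gave -0.30 with an unadjusted limma p of 0.0430 (adjusted p = 0.628), and leaving out Ctrl replicate 1 gave -0.04.

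*Nhp2* (chr11:51619735-51623714, plus strand) encodes the core protein that sits next to *Nop10* in the particle. Its FPKM was 16.2, 9.98 and 7.76 in Ctrl and 9.29, 10.2 and 9.70 in cKO samples. The cKO samples were close to each other, while Ctrl replicate 1 stood high and Ctrl replicate 3 low on either side of them. The mean was 11.3 ± 4.35 in Ctrl and 9.72 ± 0.450 in cKO (SD, n = 3 each). The log2 change of -0.14 (standard error 0.236, limma adjusted p = 0.919) changed sign, to 0.13, without Ctrl replicate 1. *Nhp2* shares 44 bases with *Rmnd5b* on the opposite strand, which was at 10.2 to 12.1 FPKM in all 6 samples.

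*Gar1* (chr3:129824912-129831396, minus strand) is the core protein that joins last and marks the finished particle. Its FPKM was 9.36, 7.05 and 5.30 in Ctrl and 7.44, 8.02 and 5.97 in cKO samples, so the cKO values lay inside the Ctrl range. The Ctrl mean of 7.23 ± 2.04 was close to the cKO mean of 7.14 ± 1.06 (SD, n = 3 each). The log2 change was 0.0050 (standard error 0.200), but its 95% interval of -0.47 to 0.48 leaves room for a change in either direction.

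*Naf1* (chr8:66860217-66890564, plus strand) occupies the place of *Gar1* during assembly in the nucleoplasm. Its FPKM was 3.001, 1.19 and 2.06 in Ctrl and 1.66, 2.08 and 1.55 in cKO samples. Ctrl replicates 1 and 2 held the highest and the lowest value, with the cKO samples between them. The log2 change was -0.12 (standard error 0.230, 95% interval -0.67 to 0.43, limma adjusted p = 0.930). The estimate moved to 0.09 when Ctrl replicate 1 was left out and to -0.34 without Ctrl replicate 2.

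*Shq1* (chr6:100568256-100671157, minus strand), the chaperone of free dyskerin, had the largest positive estimate of the 9. Its FPKM was 1.13, 0.862 and 0.961 in Ctrl and 1.18, 1.68 and 1.03 in cKO samples. In 2 of the 3 cKO samples it lay above all Ctrl samples, and the groups overlapped only through cKO replicate 3. The mean was 0.984 ± 0.135 in Ctrl and 1.30 ± 0.344 in cKO (SD, n = 3 each), with a log2 change of 0.20 (standard error 0.145, 95% interval -0.15 to 0.55, limma adjusted p = 0.820). Without cKO replicate 2 the log2 change was 0.0847. On the opposite strand within *Shq1* lies the processed pseudogene *Gm6565* (438 bases), at 2.47 to 6.04 FPKM. Within it on the same strand, *Gm44116* had at most 3 reads in a sample and *Gm44108* was at 0.

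*Wrap53* (chr11:69561758-69580255, minus strand) encodes the Cajal body factor that recognises the TGAG-type box shown at the 3′ end of *Terc*. Its FPKM was 5.17, 5.76 and 5.16 in Ctrl and 5.38, 5.27 and 4.26 in cKO samples. Only cKO replicate 3 lay below the Ctrl range. The log2 change was -0.10 (standard error 0.112, 95% interval -0.36 to 0.17, limma adjusted p = 0.877) and shrank to -0.0071 without cKO replicate 3. The gene lies 103 bases from *Trp53*, which is on the opposite strand.

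**Figure D2:**
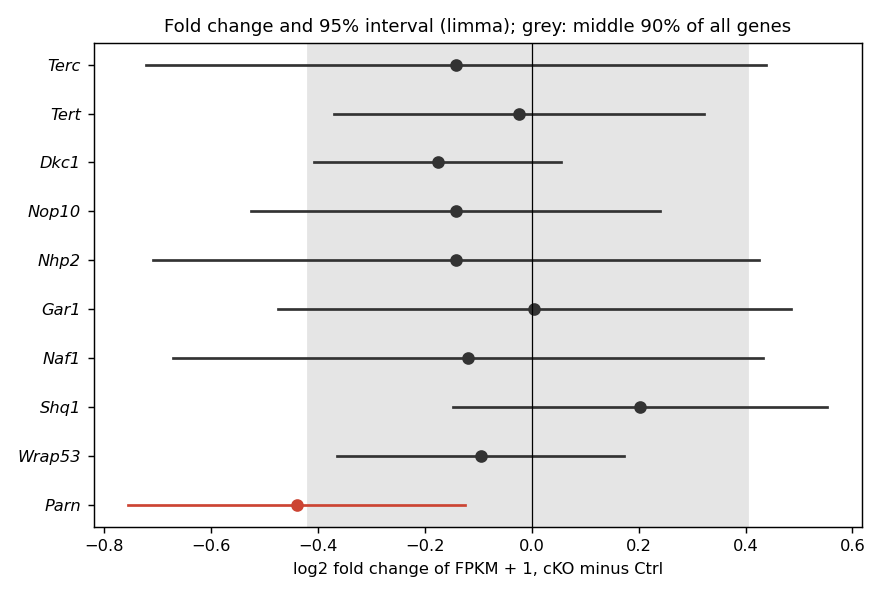
Log2 change of FPKM + 1 (cKO minus Ctrl) of *Parn* and the 9 genes, with limma's 95% intervals and a grey band for the middle 90% of all genes tested. The interval of *Parn* (-0.75 to -0.13) lies below 0, and the intervals of all 9 genes include 0.

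Ordered by mean FPKM over all 6 samples, the levels ran *Nop10*, *Nhp2*, *Gar1*, *Wrap53*, *Dkc1*, *Naf1*, *Tert*, *Terc* and *Shq1*. *Nop10* lay above 95.5% of all genes tested and *Nhp2* above 82.7%, whereas *Tert*, *Terc* and *Shq1* lay above 44.5%, 39.5% and 39.3%. From *Nop10* down to *Naf1* each gene exceeded the next in 6 of 6 samples. The ranges of neighbours were apart at *Nop10* over *Nhp2* (3.45-fold in the means) and at *Dkc1* over *Naf1* (2.15-fold). *Naf1* exceeded *Tert* in 3 of 6 samples and *Terc* exceeded *Shq1* in 3 of 6, so the order within the low group is not settled by these samples. The core proteins of the mature particle thus stood above the assembly factors *Naf1* and *Shq1*, and *Tert* and *Terc* were among the lowest in FPKM. *Terc* lacks a poly(A) tail in its mature form, and its capture by the mRNA library was not tested. Its place in this order may therefore not be that of its abundance.

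Across samples, Ctrl replicate 1 was the highest of 6 in 5 of the 9 genes, and Ctrl replicate 3 the lowest in 4. The 9 genes summed to 86.3, 73.4 and 57.8 FPKM in Ctrl and to 63.4, 71.9 and 61.3 in cKO samples. The Ctrl sums lay on both sides of all cKO sums. Ctrl replicate 1 also differed in other transcripts. Its 6 leukocyte markers, all detected, summed to 883 FPKM against 146 to 243 in the other 5 samples. Its 12 proliferation genes, all detected, summed to 64.0 against 25.7 to 32.2. Without Ctrl replicate 1, 5 of the 9 genes had a lower and 4 a higher estimate in cKO, with a median of -0.02. The part of these other transcripts in the result was not tested.

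Every marker of the β cell, endothelial, acinar and stromal lists was detected. The summed FPKM of 8 β cell markers was 234546 to 274956 in Ctrl and 193706 to 215896 in cKO, and that of 4 endothelial markers was 84.7 to 99.1 and 109 to 139, with no overlap in either sum. The β cell sum is carried by its most abundant genes, and the mean log2(FPKM + 1) of the same 8 markers overlapped, at 10.29 to 10.73 in Ctrl and 10.27 to 10.38 in cKO. Of the 8, 1 was lower at an unadjusted p under 0.05. Acinar markers ranged from 5150 to 14712 in Ctrl and from 6727 to 23917 in cKO, and stromal markers from 5.81 to 8.41 and from 7.58 to 21.9, so these sums overlapped. Their part in the values of the 9 genes was not tested.

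Ratios between members within a sample, which do not depend on library scaling, were compared with exact two-sided permutation tests, for which 0.1 is the smallest p that 3 against 3 samples allow. *Gar1* over *Naf1*, the late over the early partner of dyskerin, was 3.12, 5.91 and 2.57 in Ctrl and 4.49, 3.85 and 3.84 in cKO samples. The cKO values lay within the Ctrl range, and the log2 ratio differed by 0.16 (exact permutation p = 0.8). *Dkc1* over the geometric mean of *Nop10*, *Nhp2* and *Gar1*, its partners in the core, was 0.256, 0.310 and 0.387 in Ctrl and 0.292, 0.275 and 0.296 in cKO samples. This ratio also overlapped, with a log2 difference of -0.12 (exact permutation p = 0.7).

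*Shq1* over *Dkc1*, the chaperone over its client, was 0.235, 0.195 and 0.231 in Ctrl and 0.311, 0.417 and 0.280 in cKO samples. Every cKO sample lay above every Ctrl sample. The mean log2 ratio was -2.19 ± 0.148 in Ctrl and -1.59 ± 0.298 in cKO (SD, n = 3 each), a difference of 0.59. Its exact permutation p was 0.1, the smallest possible, and 0.3 after adjustment over the 3 ratios. Leaving out any sample gave a difference of 0.43 to 0.71, each with an exact permutation p of 0.2.

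**Figure D3:**
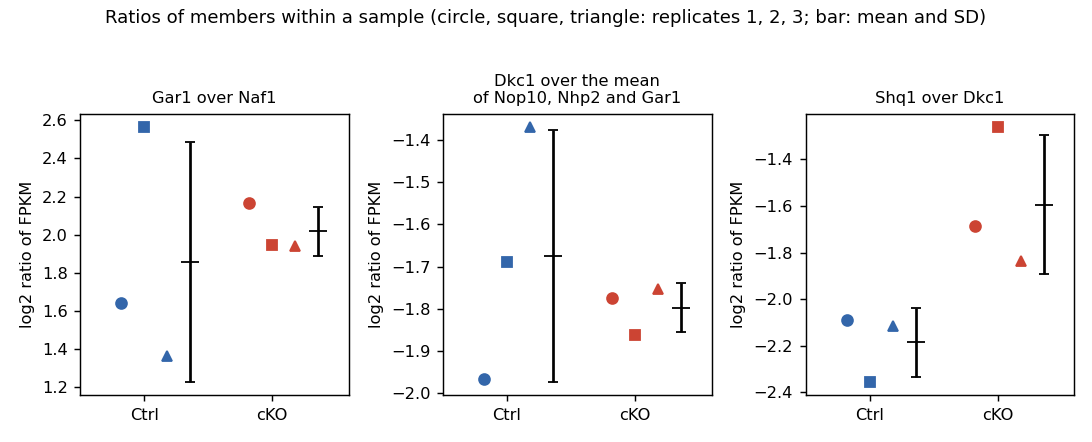
Log2 ratio of FPKM within each sample for *Gar1* over *Naf1*, *Dkc1* over the geometric mean of *Nop10*, *Nhp2* and *Gar1*, and *Shq1* over *Dkc1* (points: samples; bar: mean and SD, n = 3). Only in the *Shq1* over *Dkc1* panel are the groups apart, at -2.36 to -2.09 in Ctrl and -1.84 to -1.26 in cKO.

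Other genes of telomerase biology were read from the same fit. Of 19 genes listed for telomerase RNA 3′ end processing, 18 were tested and *Exosc6* was at 0. The list also holds factors of the cap, such as *Tgs1* and *Srrt*. The estimate was lower in 16 and higher in 2, with a median of -0.09, and *Parn* was the only one at an unadjusted p under 0.05 (1 of 18 lower, against 3.07% of all genes). No overlap was seen in 4 of 18, all lower in cKO, against 6.03% of all genes. These were the deleted gene *Parn*, the cap hypermethylase *Tgs1* (log2 change -0.15), the nuclear poly(A)-binding protein *Pabpn1* (-0.25) and the cap-binding partner *Srrt* (-0.14).

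Among 13 factors of assembly and recruitment, 9 had a lower and 4 a higher estimate and 0 had an unadjusted p under 0.05. No overlap was seen in 1 of the 13, lower in cKO, against 6.03% of all genes. The extremes were *Ptges3*, the HSP90 co-chaperone p23, at -0.21 and the AAA+ ATPase *Ruvbl1* at 0.18. Of the 7 shelterin genes, whose proteins coat telomeric repeats, 5 had a lower and 2 a higher estimate, from *Pot1b* at -0.25 to *Terf1* at 0.13. An unadjusted p under 0.05 was reached by 0, and 1 of the 7 had no overlap, lower in cKO, against 6.03% of all genes. Of 12 genes of the CST complex and telomere replication, 9 were lower and 3 higher. *Pola2*, a subunit of DNA polymerase α that fills in the lagging strand, was at 3.73, 2.68 and 3.06 FPKM in Ctrl and 2.32, 2.02 and 2.12 in cKO samples. Its groups did not overlap (log2 change -0.39, limma adjusted p = 0.578), and it was the only gene of that list at an unadjusted p under 0.05 (1 of 12 lower, against 3.07% of all genes). Of the 12, 2 had no overlap, *Pola2* and the helicase *Wrn* (-0.08), both lower in cKO, against 6.03% of all genes.

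Box C/D proteins and stand-alone pseudouridine synthases complete 6 such lists, with 73 genes in all. Of the 71 tested, 52 had a lower and 19 a higher estimate in cKO, with a median of -0.06. An unadjusted p under 0.05 was reached by 3 lower genes (4.23%, near the 3.07% of all genes) and 0 higher ones, and limma's adjustment left 0. The 3 were *Parn*, *Pola2* and the pseudouridine synthase *Rpusd2*. As the deleted gene, *Parn* says nothing about the lists, and it is also counted among the lower genes in the numbers that follow. No overlap between the groups was seen in 10 lower and 1 higher of the 71, against 6.03% and 7.11% of all genes. Without Ctrl replicate 1, 40 were lower and 31 higher, and 8 lower and 1 higher gene had an unadjusted p under 0.05, where 5.53% of all genes were lower at that threshold. The surplus of lower estimates was thus smaller without that sample, while more genes passed the unadjusted threshold.

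**Figure D4:**
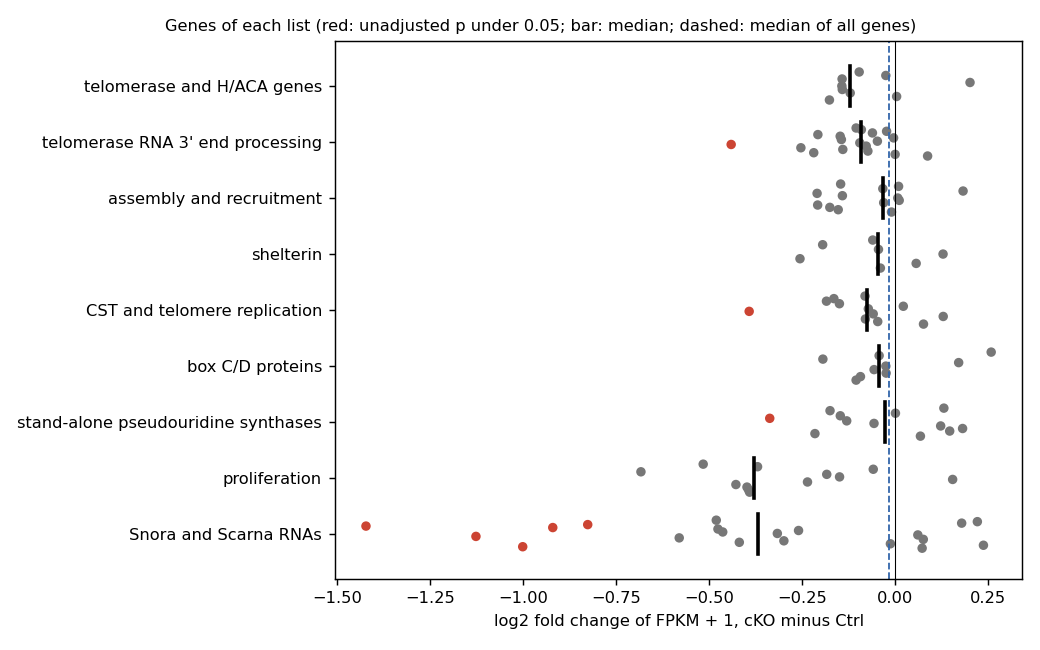
Log2 change of FPKM + 1 (cKO minus Ctrl) of every tested gene of 9 lists, with red for an unadjusted p under 0.05, a bar for the list's median and a dashed line at the median of all genes. The 9 telomerase and H/ACA genes lie between -0.18 and 0.20, while the *Snora* and *Scarna* RNAs spread from -1.42 to 0.24.

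The guide RNAs of H/ACA particles, which direct pseudouridylation or reside in Cajal bodies, share the core proteins with *Terc*. The table holds 51 rows named *Snora* or *Scarna* (some *Scarna* RNAs are of the box C/D kind), and 30 of them were at 0 in all samples. Over all 51, the summed FPKM was 58.1, 51.5 and 52.9 in Ctrl and 42.7, 37.4 and 30.1 in cKO samples. All cKO sums lay below all Ctrl sums, also without *Snora31*, the most abundant, at 30.5 to 35.2 in Ctrl and 14.8 to 26.1 in cKO. These sums rested on 145, 120 and 126 reads in Ctrl and 123, 93 and 86 in cKO samples. Per 1000000 reads of the library size implied by the FPKM, this was 7.57 to 8.31 in Ctrl and 4.76 to 7.002 in cKO. That size lay below the reads on genes in every Ctrl sample and above them in every cKO sample. Per read on genes the difference would thus be smaller, and the FPKM sums carry the same scaling.

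With no filter, 21 of these RNAs had a value, 14 of them with a lower estimate in cKO and 3 lower at an unadjusted p under 0.05. Over all genes 2.55% were lower at that threshold in the fit with no filter. With the filter, 20 remained, 14 lower and 6 higher with a median of -0.37, and 5 were lower at that threshold, against 3.07% of all genes. That count was 1 of 20 by voom on the reads, against 2.85% of all genes. It was 3 without Ctrl replicate 1 (against 5.53%), 3 without Ctrl replicate 3 (against 4.04%) and 2 without cKO replicate 3 (against 1.9%). Limma's adjustment left 0. No overlap between the groups was seen in 3 of the 20, all lower in cKO, against 6.03% of all genes. *Snora57* was at 9.29, 6.87 and 6.50 FPKM in Ctrl and 3.85, 3.11 and 4.48 in cKO samples, with no overlap (log2 change -0.83, limma adjusted p = 0.385). *Snora41* was at 5.21, 5.78 and 4.10 in Ctrl and 1.29, 2.18 and 3.35 in cKO samples, also with no overlap (-0.92, adjusted p = 0.488). They rested on 24, 16, 16, 10, 8 and 12 reads and on 12, 12, 9, 3, 5 and 8 reads, in that order of samples. *Snora21* was at 0.418, 1.86 and 2.63 in Ctrl and at 0.416, 0 and 0 in cKO, so its groups were apart by the difference between 1 read in Ctrl replicate 1 and 1 read in cKO replicate 1.

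Several guide RNAs lie in introns of host genes, whose reads cannot be told apart from theirs at the shared bases. *Rpl23*, the ribosomal protein gene that holds *Snora21*, averaged 114.6 ± 12.4 FPKM in Ctrl and 91.1 ± 6.83 in cKO (SD, n = 3 each), with no overlap and a log2 change of -0.33 (limma adjusted p = 0.597). *Eef1b2*, which holds *Snora41*, had a log2 change of -0.17, and *Lbhd1*, opposite to *Snora57*, one of -0.15. *Tpt1*, which holds *Snora31*, averaged 407 FPKM in Ctrl and 338 in cKO, with no overlap and a log2 change of -0.27 (limma adjusted p = 0.692). The part of the host genes in the guide RNA values was not tested. The FPKM of *Terc* overlapped between the genotypes, but it rested on 27 reads in Ctrl and 23 in cKO samples. The exact interval of the *Terc* rate ratio, 0.438 to 1.45, is wide. It cannot decide whether *Terc* changed as the guide RNA sums did, and this was not tested.

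**Figure D5:**
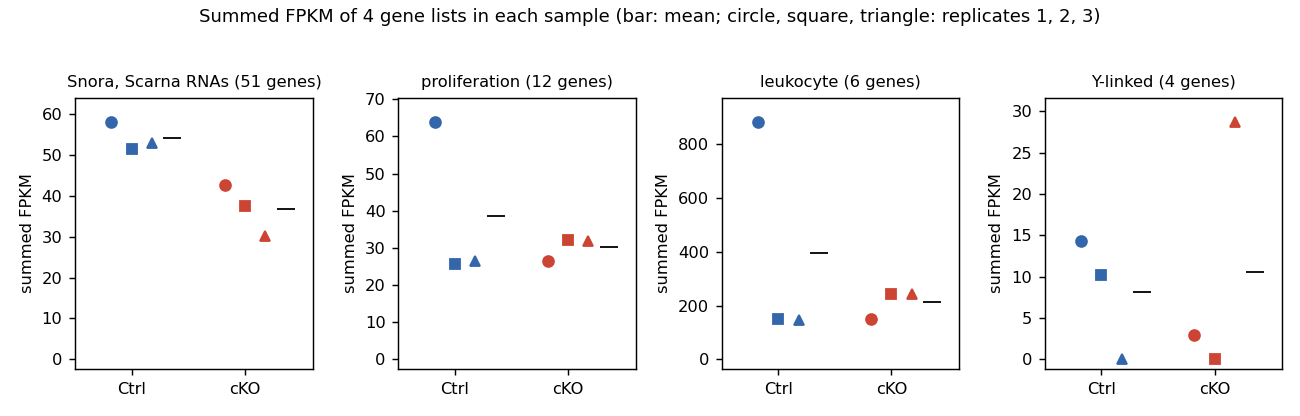
Summed FPKM of 51 *Snora* and *Scarna* RNAs, 12 proliferation genes, 6 leukocyte markers and 4 Y-linked genes in each sample (points: samples; bar: mean). The *Snora* and *Scarna* sums are apart (51.5 to 58.1 in Ctrl, 30.1 to 42.7 in cKO), and Ctrl replicate 1 stands high for proliferation genes (64.0) and leukocyte markers (883).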

How the data were processed

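Total RNA of islets was extracted with TRIzol and sequenced after preparation with a SMARTER mRNA kit, 3 Ctrl and 3 cKO samples, grouped by their labels. The authors deposited FPKM per gene and sample on GRCm38 (mm10) and compared genotypes with DESeq2 1.20.0. The aligner, counter, strand setting and annotation release are not given in the sources used here. FPKM times gene length moved in equal steps, which gave the reads behind each value, and 100% were whole within 0.1. The steps also gave the library size implied for each sample, at which 1 read on 1 kilobase is an FPKM of 0.0553 to 0.0636.

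Log2(FPKM + 1) was compared with limma 3.58.1 in R 4.3.3 (trended empirical Bayes, two-sided tests), with p-values adjusted after Benjamini and Hochberg, where the mean FPKM reached 0.1. The code was tested on simulated data. Ratios were tested by exact permutation in SciPy 1.17.1, and figures were drawn with matplotlib 3.10.9. Sequences came from GENCODE M21 on GRCm38, where 98.3% of 54409 shared genes, and all 9 studied here, had the coordinates of the table.

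The 9 genes, the lists and the tests were chosen with earlier results of these data known. Genes named were the 9, *Parn*, genes overlapping a member, in each list those without overlap at an unadjusted p under 0.05 or else the extremes, and the 3 nearest to *Dkc1*, of which 1 is not reported here. *Tgs1*, *Pabpn1*, *Srrt*, *Wrn*, *Trp53*, *Snora31*, the host genes, *Rmrp*, *Rpph1*, *Rn7s1* and *Exosc6* were named after their values were seen. The fit was repeated under 17 alternatives: other pseudocounts, filters, scalings and variance settings, voom, a Y-linked covariate, a replicate block and each sample left out.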

Additional observations from a re-analysis of the deposited data

How the results depend on the processing

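No setting called any of the 9 genes at an adjusted p under 0.05. *Dkc1*, *Nop10*, *Shq1*, *Wrap53* and *Parn* kept their direction in all 17 alternatives, and *Parn* had an unadjusted p under 0.05 in 17 of 17. Direction could not change in all of these. Fits with another filter, without the trend, with robust variances or with a replicate block leave an estimate unchanged by design. The median-ratio scaling divided all 6 samples by the same factor (1.0037). Leaving out 1 sample gave log2 changes of -0.39 to 0.026 for *Terc*, -0.12 to 0.090 for *Tert*, -0.36 to 0.13 for *Nhp2*, -0.17 to 0.19 for *Gar1* and -0.34 to 0.089 for *Naf1*. With sample weights the log2 change was 0.0028 for *Tert* and 0.072 for *Naf1*, and with voom it was -0.0017 for *Gar1*. The log2 ratio differences ranged from -0.085 to 0.52 for *Gar1* over *Naf1* and from -0.27 to 0.031 for *Dkc1* over its partners, both changing sign without Ctrl replicate 3 (-0.085 and 0.031). Without a sample, 0 to 1 of all genes passed the adjusted threshold (1 without Ctrl replicate 1), and 402 (without cKO replicate 3) to 1173 (without Ctrl replicate 1) were lower at an unadjusted p under 0.05. That count was 1245 with sample weights, against 651. Of the 9 genes, 0 to 1 were lower at that threshold, *Nop10* without Ctrl replicate 3, where 4.04% of all genes were. Of the 71 pathway genes, 1 to 8 were lower and 0 to 1 higher. The deleted gene *Parn* is 1 of the 71 and is among the lower ones in every setting. The lower share was 11.3% without Ctrl replicate 1 (8 genes), against 5.53% of all genes. It was 9.86% (7 genes) against 4.04% without Ctrl replicate 3, and 1.41% (1 gene) against 1.9% without cKO replicate 3. With sample weights it was 8.45% (6 genes) against 5.87%. In these settings 1 pathway gene was higher, except without cKO replicate 3, where 0 were. All genes higher numbered 1251, 811 and 1267 of 21211 without Ctrl replicate 1, without Ctrl replicate 3 and with sample weights. The causes were not tested. Same-numbered samples did not deviate together (r = -0.17, -0.02 and -0.07). These untested correlations cannot decide whether the numbers pair samples, which the labels do not say. With a replicate block, 0 genes were called, and 538 were lower and 737 higher at an unadjusted p under 0.05. In that fit 3 pathway genes were lower (4.23%, against 2.54% of all genes). *Dkc1* had a log2 change of -0.18 there (limma adjusted p = 0.854). Depth limits *Terc* and the guide RNAs, which rest on few reads.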

Other observations

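Proteins of box C/D particles, which guide methylation rather than pseudouridylation, were 9 in the table, and 7 had a lower and 2 a higher estimate in cKO. The extremes were *Snu13*, which binds the kink-turn of the guide RNA, at -0.19 and the assembly factor *Znhit6* at 0.26, and 0 had an unadjusted p under 0.05 (limma), as had 0 by voom. Of 12 pseudouridine synthases that work without a guide RNA, 6 were lower and 6 higher, with a median of -0.03. No overlap was seen in 2 lower and 1 higher of the 12, against 6.03% and 7.11% of all genes. *Rpusd2* was at 1.46, 1.81 and 1.62 FPKM in Ctrl and 0.884, 1.30 and 1.08 in cKO samples, with no overlap (log2 change -0.34, limma adjusted p = 0.641).

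Of 12 proliferation genes, 11 had a lower and 1 a higher estimate, with a median of -0.38 and 0 at an unadjusted p under 0.05. *Mki67*, a marker of dividing cells, was at 3.85, 0.442 and 0.890 FPKM in Ctrl and 0.385, 0.486 and 0.555 in cKO samples, so Ctrl replicate 1 stood far above the rest. Without that sample 5 were lower and 7 higher, with a median of 0.03.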
